A study of Mus musculus with 6 samples.

Results

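The 35 genes described here encode the contractile apparatus of smooth muscle and the surface, channel and signalling proteins of pericytes. They were taken by gene symbol, and all 35 were found among the 52325 Ensembl genes of the count table and passed the low-count filter that left 20684 genes for testing. RNA sequencing measured their levels in 6 cell populations that were sorted out of mouse mammary tumours. The mice were of the C57BL/6 strain, carried the C3-T background and had an Elf5-GFP reporter. Elf5 is a transcription factor of the ETS family that mammary luminal progenitors and alveolar cells use, and green fluorescent protein (GFP) reports its expression. All 6 populations share this background and reporter. Tumours were digested with collagenase and hyaluronidase, sorted with antibodies against CD45 (leukocytes), CD31 (endothelial cells) and TER119 (erythroid cells) and then by GFP, so that 2 libraries are GFP-positive (Elf5+, here Elf5-positive) and 4 are GFP-negative (Elf5-, here Elf5-negative). The labels give neither age nor sex and do not spell out C3-T. Nothing in them ties each library to an animal of its own, so the spread behind the p-values may be technical. No antibody in this sort removes fibroblasts, pericytes or smooth muscle cells.

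Smooth muscle cells contract when calcium and calmodulin switch on myosin light chain kinase, which phosphorylates the light chain of smooth muscle myosin and lets it pull on filaments of smooth muscle actin. Pericytes wrap small vessels, share part of this machinery, and carry potassium channels and receptors through which they set vessel tone. In the mammary gland, basal myoepithelial cells use the same contractile proteins to eject milk, and activated fibroblasts of tumours can make smooth muscle actin too, so that few of these genes belong to 1 cell type alone.

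Library totals ran from 9106660 counts in Elf5-negative library 4 to 53694884 in Elf5-negative library 3. Elf5 itself was at 77.7 and 137.0 CPM (counts scaled to the library total with TMM factors, as all CPM here) in the Elf5-positive libraries and at 10.7, 6.93, 10.5 and 24.7 CPM in Elf5-negative libraries 1 to 4, which follows the labels. The summed level of 18 epithelial markers was 9101 and 6362 CPM in the Elf5-positive libraries and 2336 to 3946 CPM in the Elf5-negative ones. Fold changes below are Elf5-positive over Elf5-negative from edgeR's quasi-likelihood test, with p-values adjusted over all 20684 genes by the Benjamini-Hochberg method. The titles carry a number and a T code, which the labels do not define. By these, Elf5-positive library 1 goes with Elf5-negative library 2, and Elf5-positive library 2 with Elf5-negative library 4, all 4 coded T2.

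All 35 genes had a lower estimate in the Elf5-positive libraries, and 15 of them fell at an adjusted p below 0.05, while none rose. Among all genes tested 3.79% fell and 0.585% rose. The median log2 fold change was -2.998 over the 35 genes and 0.05 over all genes tested. Both Elf5-positive libraries lay below all 4 Elf5-negative libraries in 26 of the 35 genes, which holds for 14.8% of the genes tested. By role, 4 of 7 genes of the contractile filaments fell, as did 1 of 6 genes of filament-binding proteins, 3 of 7 genes of dense bodies and intermediate filaments, 1 of 4 regulators and other genes, and 6 of 11 pericyte genes. In these bulk libraries, fewer cells of a type and less of a transcript per cell cannot be told apart.

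**Figure D1:**
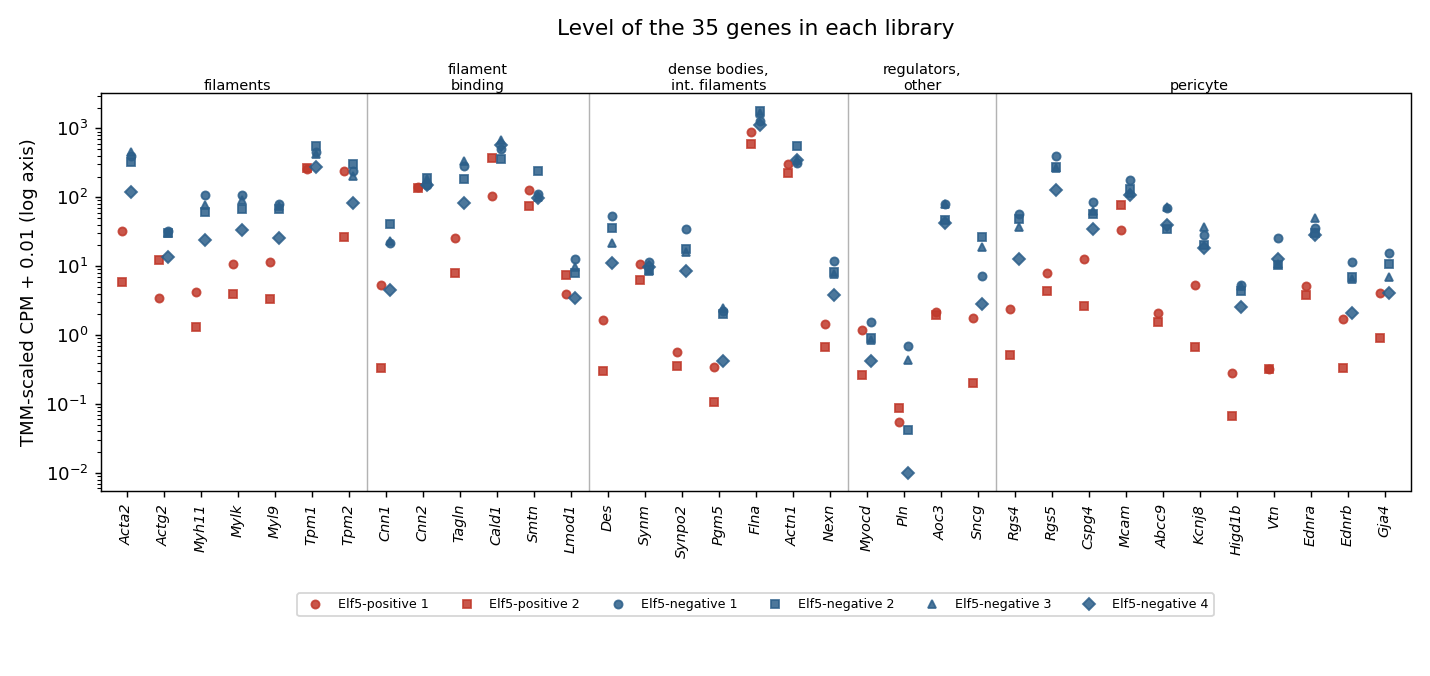
Level of each of the 35 genes in each library, as TMM-scaled CPM plus 0.01 on a log axis, with the 2 Elf5-positive libraries in red and the 4 Elf5-negative libraries in blue. Both red points lie below all blue points in 26 genes, and Elf5-negative library 4 (diamond) is the lowest blue point in 29. Over all genes tested the first holds for 14.8%, and the share for the second was not computed.

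Of the 7 genes of the contractile filaments, Acta2, Myh11, Mylk and Myl9 fell. Acta2, smooth muscle alpha-actin (GRCm38 chromosome 19, 34241090 to 34255590), stood at 32.9 and 5.88 CPM in the Elf5-positive libraries and at 403, 331, 453 and 120.4 CPM in Elf5-negative libraries 1 to 4. The groups did not overlap, and the lowest value among the Elf5-negative libraries was that of library 4. Its log2 fold change was -4.08 (standard error, SE, 0.87, adjusted p = 0.0429). Myh11, the heavy chain of smooth muscle myosin (chromosome 16, 14194535 to 14291372), was at 4.27 and 1.30 CPM against 109.7, 61.8, 76.2 and 24.0 CPM (log2 fold change -4.61 with an SE of 0.79, adjusted p = 0.0210). Mylk, the light chain kinase, fell by 3.35 on the log2 scale (SE 0.62) and Myl9, a regulatory light chain of myosin, fell by 3.07 (SE 0.67, adjusted p = 0.0460).

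The remaining filament genes did not pass. Actg2, enteric smooth muscle gamma-actin, was at 3.40 and 12.4 CPM against 32.7, 30.5, 30.8 and 13.5 CPM, so Elf5-positive library 2 nearly reached Elf5-negative library 4 (log2 fold change -1.77, SE 0.59, adjusted p = 0.160). Actins have near-identical coding sequences, so the split of reads between Acta2, Actg2 and the other actin genes is less certain than for the other genes. The tropomyosins Tpm1 and Tpm2, which lie along the actin filament, had log2 fold changes of -0.67 (SE 0.32, adjusted p = 0.343) and -0.63 (SE 0.81, adjusted p = 0.777). Tpm2 was at 243.9 and 26.8 CPM, against 243.9, 307.4, 206.1 and 81.9 CPM. Elf5-positive library 2 was thus below, and Elf5-positive library 1 within, the range of the Elf5-negative libraries, and its estimate was 0.22 without Elf5-positive library 2 and -2.97 without Elf5-positive library 1.

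Of the 6 genes grouped here as filament-binding proteins, Tagln fell and the others did not pass. Tagln, which encodes transgelin (SM22 alpha), an actin cross-linking protein, was at 25.6 and 7.86 CPM against 284, 183, 338 and 82.1 CPM (log2 fold change -3.73, SE 0.75, adjusted p = 0.0353). The annotated antisense gene Gm48529 covers 62.4% of the exon bases of Tagln, and the counting is not stated to use strand, so reads of the 2 genes may not be told apart. Cnn1, calponin 1, an inhibitor of the actomyosin ATPase, was at 5.26 and 0.329 CPM against 22.0, 41.4, 23.0 and 4.53 CPM. Its estimate (-3.03) lay near the weaker end of the range of the genes that passed (-5.57 to -2.90). Its groups overlapped at Elf5-positive library 1 and Elf5-negative library 4, and its error was wide (SE 1.18, adjusted p = 0.236). Cnn2, a calponin of many cell types, was at 143.3 and 138.1 CPM against 149.3, 189.9, 187.3 and 153.0 CPM (log2 fold change -0.27, SE 0.22, adjusted p = 0.630). The caldesmon gene Cald1, an actin-binding regulator of contraction, was, like Actg2, higher in Elf5-positive library 2 than in library 1, with 104.1 and 369 CPM against 495, 359, 669.5 and 566 CPM, and did not pass (log2 fold change -1.14, adjusted p = 0.317). Smtn (smoothelin) and Lmod1 (leiomodin 1, which nucleates actin filaments) had log2 fold changes of -0.45 and -0.58 and overlapping groups.

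**Figure D2:**
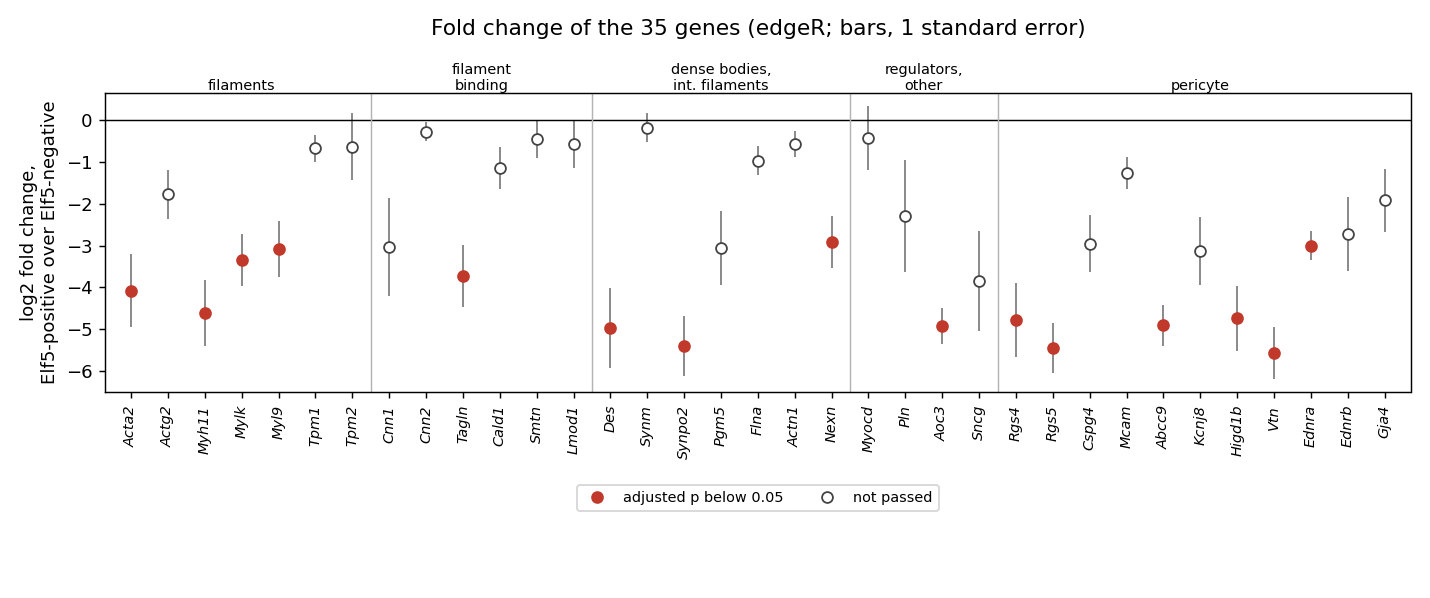
Log2 fold change of each gene, Elf5-positive over Elf5-negative, with 1 standard error (edgeR); filled points passed at an adjusted p below 0.05. The 15 genes that passed lie between -5.57 (Vtn) and -2.90 (Nexn), and the 20 that did not pass between -3.84 (Sncg) and -0.18 (Synm).

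Many of these genes have a close relative that works in the actin skeleton of most cells, and the ratio of such a pair within 1 library does not move with how the library is scaled. Of the pairs below, Des to Vim and Ednra to Ednrb are not of this kind, and Vim itself fell (log2 fold change -3.07, adjusted p = 0.0477, edgeR). The ratios are counts plus 0.5 per kb of exon, on the log2 scale. The ratio of Acta2 to cytoplasmic beta-actin (Actb) was -6.31 and -8.70 in the Elf5-positive libraries and -1.82, -3.003, -2.23 and -3.87 in the Elf5-negative ones. The ratio of Myh11 to the non-muscle myosin Myh9 was -7.29 and -8.81 against -2.40, -4.22, -3.29 and -4.44, and that of Tagln to Tagln2 was -5.16 and -6.34 against -1.14, -2.38, -1.56 and -2.85. Of 13 pairs, 7 had no overlap between the groups, all of them lower in the Elf5-positive libraries, namely these 3, Actg2 to Actg1, Myl9 to Myl12b, Actn1 to Actn4 and Des to Vim. The first gene of each of these 7 pairs also had no overlap in CPM, so the ratios are not independent of that result. The share of other gene pairs without overlap was not computed. Among the pairs that overlapped were Tpm2 to Tpm4, Tpm1 to Tpm3, Cnn1 to Cnn2, Cnn1 to Cnn3 and Ednra to Ednrb. With 2 libraries against 4, an exact two-sided permutation test cannot go below 0.0667, which is the value these 7 pairs reached (0.124 when adjusted over the 13 pairs), so no pair could pass. Among the 18 non-muscle genes of the actin skeleton chosen as a list, Actb, Actg1 and Myh9 included, none fell or rose (edgeR), 7 of them at an estimate above 0, with a median log2 fold change of -0.10 and a range from -0.84 (Vcl) to 0.74 (Actn4).

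**Figure D3:**
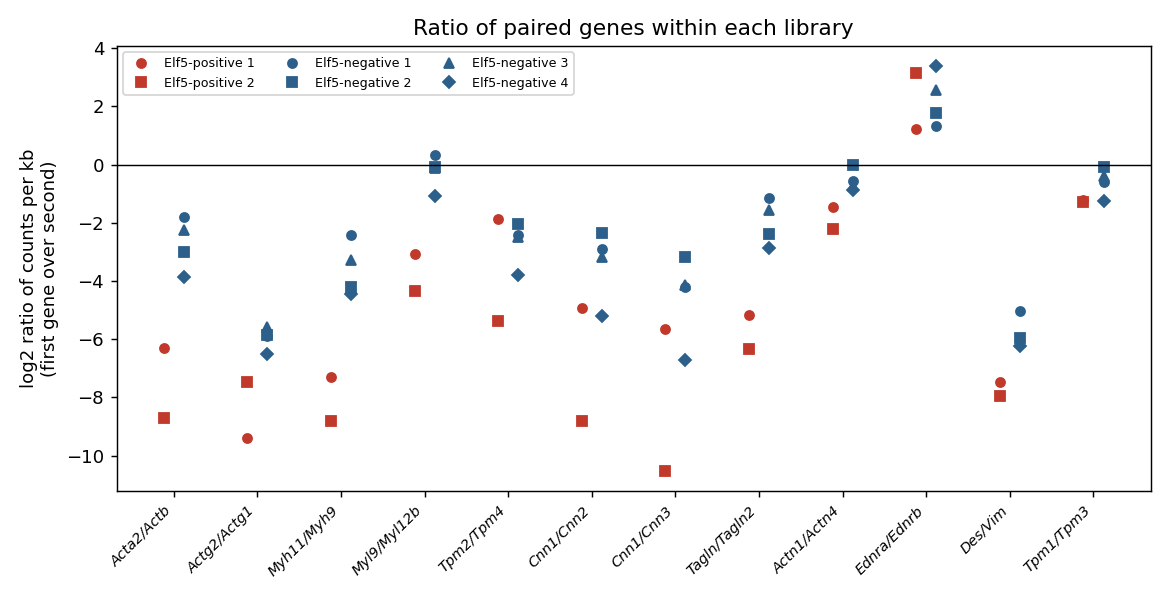
Log2 ratio of 2 related genes within each library, from counts per kb of exon, for 12 pairs; red points are the 2 Elf5-positive libraries and blue points the 4 Elf5-negative ones. Acta2 to Actb lies at -6.31 and -8.70 in red and between -3.87 and -1.82 in blue, whereas Ednra to Ednrb overlaps.

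Genes of both kinds are known targets of serum response factor (SRF), which binds a DNA element called the CArG box, a pair of C, a core of A and T, and a pair of G, with the myocardin family as coactivators. RefSeq promoter windows (250 bases before to 50 after a start, GRCm38.p6) were matched for 28 of the 35 genes, all but Actg2, Myh11, Tagln, Nexn, Myocd, Aoc3 and Higd1b. An exact CArG box, searched on both strands, was present in 2 of these 28 genes, Myl9 and Cnn2, against 1.81% of all 27025 genes with a window. Boxes with 1 G or C in the core were present in Acta2, Myl9 and Synm, against 9.69% of all genes, and in the non-muscle genes Myl12a and Tpm3. Of 16 non-muscle genes of the list above with a window, 3 had an exact box, namely Actg1, Myl6 and Vcl. The boxes are shown with 10 bases on each side, on the gene's strand and 5′ to 3′, because they occur in genes that fell (Acta2, Myl9), in genes that did not pass (Cnn2, Synm) and in non-muscle genes; capitals mark the box.
Acta2, exact but for 1 base, chr19:34255438-34255467, minus strand, 84 bases before the start: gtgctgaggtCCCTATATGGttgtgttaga
Acta2, exact but for 1 base, chr19:34255388-34255417, minus strand, 34 bases before the start: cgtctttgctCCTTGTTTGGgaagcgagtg
Myl9, exact, chr2:156775293-156775322, plus strand, 161 bases before the start: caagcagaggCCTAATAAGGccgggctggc
Myl9, exact but for 1 base, chr2:156775355-156775384, plus strand, 99 bases before the start: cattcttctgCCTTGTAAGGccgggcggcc
Synm, exact but for 1 base, chr7:67759962-67759991, minus strand, 239 bases before the start: caacggggagCCTCATAAGGtgtcccagat
Cnn2, exact, chr10:79988534-79988563, plus strand, 56 bases before the start: cgcttccacgCCTTATAAGGacatttgctc
Actg1, exact, chr11:120348566-120348595, minus strand, 90 bases before the start: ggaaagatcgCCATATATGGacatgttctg
Myl6, exact, chr10:128493040-128493069, minus strand, 50 bases before the start: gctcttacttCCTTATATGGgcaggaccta
Vcl, exact, chr14:20929161-20929190, plus strand, 227 bases before the start: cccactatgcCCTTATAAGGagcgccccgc
Myl12a, exact but for 1 base, chr17:71002532-71002561, minus strand, 18 bases before the start: tcctcaattgCCCTAAAAGGacttagacgg
Tpm3, exact but for 1 base, chr3:90072575-90072604, plus strand, 66 bases before a start: gctagaaagaCCATGTTAGGaagaagaggt
Tpm3, exact but for 1 base, chr3:90079454-90079483, plus strand, 57 bases before another start: aaccccgcccCCTTTACTGGactaaggaaa
The boxes of Cnn2 and Vcl have the same letters. Cnn2 did not pass at a log2 fold change of -0.27, and Actg1, Myl6 and Vcl had log2 fold changes of 0.48, 0.15 and -0.84, none of which passed. A second element, CATTCC (the MCAT motif of TEAD factors, both strands), was present in 9 of the 28 genes, among them Acta2, Mylk, Tpm1 and Flna, against 16.6% of all genes with a window and 5 of the 16 non-muscle genes (31.2%). A match in these windows is a description of letters and shows no binding.

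Dense bodies anchor the filaments, and desmin filaments link them. Des, which encodes desmin, was at 1.66 and 0.290 CPM against 52.9, 35.4, 21.7 and 11.004 CPM (log2 fold change -4.96, SE 0.96, adjusted p = 0.0305). Synpo2, an actin-bundling protein of dense bodies and Z-discs, was at 0.562 and 0.348 CPM against 34.6, 17.97, 15.9 and 8.64 CPM, a 42.3-fold difference (log2 fold change -5.40, SE 0.71, adjusted p = 0.0121). Nexn, nexilin, an actin-binding protein of muscle cells, fell by 2.90 on the log2 scale (SE 0.62, adjusted p = 0.0438). Desmin, Synpo2, Nexn and Pgm5 are also made by skeletal muscle, and the summed level of 14 skeletal muscle markers was 261.1 and 50.6 CPM in Elf5-negative libraries 1 and 2, 6.57 and 14.7 CPM in libraries 3 and 4, and 16.1 and 11.8 CPM in the Elf5-positive libraries. Acta1, the skeletal actin, was at 106.5 and 18.9 CPM in Elf5-negative libraries 1 and 2 and at most 1.46 CPM in the other 4. The part of skeletal muscle in the values of these genes was not tested. Without Elf5-negative libraries 1 and 2, the log2 fold changes were -4.08 for Des, -4.75 for Synpo2 and -2.45 for Nexn, and none of these passed (adjusted p = 0.143, 0.0539 and 0.253). Fewer genes passed in this smaller fit in general, 75 lower in all against 783 with all libraries, and 4 against 15 of the 35. Acta2, Myh11 and Tagln did not pass in it either (adjusted p = 0.183, 0.106 and 0.154, edgeR).

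The other genes of this group are widely expressed or low. Flna, filamin A, which cross-links actin, had the highest level per kb of exon of the 35 genes in both groups, at 897 and 598 CPM against 1274, 1792, 1653 and 1109 CPM. Its groups did not overlap, but it did not pass (log2 fold change -0.96, SE 0.34, adjusted p = 0.187). Actn1, alpha-actinin 1, and Synm, synemin, did not pass, at log2 fold changes of -0.57 (SE 0.32) and -0.18 (SE 0.35). Synm had overlapping groups, at 10.6 and 6.39 CPM against 11.7, 8.86, 8.42 and 9.67 CPM. Pgm5, a phosphoglucomutase-like protein of adherens junctions in muscle, rested on 4 to 120 counts in a library and did not pass (-3.05, SE 0.89, adjusted p = 0.111).

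Aoc3, vascular adhesion protein 1, an amine oxidase on the surface of smooth muscle, had the second smallest error of the 15 genes that fell, after Ednra. It was at 2.16 and 1.94 CPM against 80.8, 46.3, 79.8 and 42.6 CPM (log2 fold change -4.93 with an SE of 0.43, adjusted p = 0.01001), and its Elf5-positive libraries were close to each other. Myocd, myocardin, the coactivator through which SRF switches on smooth muscle genes, was low in every library, at 1.17 and 0.252 CPM against 1.55, 0.914, 0.834 and 0.411 CPM, and its groups overlapped (log2 fold change -0.42, SE 0.75, adjusted p = 0.846). Sncg, gamma-synuclein, was at 1.75 and 0.194 CPM against 7.29, 26.3, 18.9 and 2.78 CPM and did not pass (adjusted p = 0.135). Pln, phospholamban, an inhibitor of the calcium pump of the sarcoplasmic reticulum, had 2 and 4 counts in the Elf5-positive libraries and 31, 1, 21 and 0 counts in the Elf5-negative ones, too few to show a difference at this depth. The annotated antisense gene Gm47644 covers 59.6% of the exon bases of Pln, so the same doubt on strand holds as for Tagln.

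Among 16 regulators of smooth muscle genes chosen as a list, 3 fell of the 15 tested and none rose, with a median log2 fold change of -0.10. Those that fell were Fhl1, a LIM-domain protein (-4.69), Gata6, a GATA factor of smooth muscle (-3.89), and Csrp2, a LIM-domain partner of SRF (-1.68). Srf itself was at 125.3 and 101.8 CPM against 101.2, 136.7, 100.2 and 81.0 CPM (log2 fold change 0.12, SE 0.26), and its other coactivators Mrtfa and Mrtfb were at -0.03 and 0.24, all with overlapping groups. None of these 3 passed. Among 24 genes of calcium entry, relaxation and contractile receptors, 5 fell and none rose, with a median of -1.35. They were Agtr1a, an angiotensin II receptor (-5.26), Prkg1, the cGMP-dependent kinase (-4.90), Kcnmb1, the smooth muscle subunit of the large-conductance calcium-activated potassium channel (-4.80), Cacna1c, the pore of the L-type calcium channel (-4.23), and Atp2b4, a calcium pump of the plasma membrane (-1.97). Rhoa, Rock1 and Rock2, of the calcium-independent route to contraction in most cells, had log2 fold changes of -0.10, -0.16 and -0.28 and did not pass.

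Vtn and Rgs5 had the largest differences of the 35 genes, and 6 of the 11 pericyte genes fell. Rgs5, a regulator of G protein signalling and a common pericyte marker (chromosome 1, 169655501 to 169695813), was at 7.92 and 4.36 CPM against 395, 278, 268 and 125.9 CPM. Its groups did not overlap, and the fitted difference was 43.5-fold (log2 fold change -5.44, SE 0.60, adjusted p = 0.01001). Rgs4, its neighbour on the chromosome 45.7 kb away, was at 2.36 and 0.503 CPM against 57.6, 48.8, 37.3 and 12.5 CPM (-4.78, SE 0.89, adjusted p = 0.0271). Vtn, vitronectin, an adhesion protein that brain pericytes also make, was at 0.315 and 0.310 CPM against 26.0, 10.2, 10.9 and 12.5 CPM (-5.57, SE 0.62, adjusted p = 0.0104). Higd1b, a small mitochondrial protein enriched in pericytes, had 12 and 3 counts in the Elf5-positive libraries against 245, 140, 253 and 25 in the Elf5-negative ones, and fell by 4.74 on the log2 scale (SE 0.78, adjusted p = 0.0184).

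Abcc9 and Kcnj8 encode the regulatory and pore subunits of the ATP-sensitive potassium channel of pericytes and lie 16.2 kb apart on chromosome 6. Abcc9 was at 2.09 and 1.55 CPM against 71.1, 34.3, 72.9 and 39.9 CPM (-4.91, SE 0.48, adjusted p = 0.01001). Kcnj8 was at 5.33 and 0.658 CPM against 28.6, 20.2, 37.6 and 18.1 CPM, with no overlap, and did not pass (-3.13, SE 0.81, adjusted p = 0.0786). Kcnj8 thus differed 8.10-fold between the Elf5-positive libraries, where Abcc9 differed 1.35-fold. Of 9 other well-counted genes within 500 kb of this pair, 7 were higher in Elf5-positive library 1 than in library 2 and 2 were lower, Slco1a5 (29.4 and 38.9 CPM) and Gm20400 (1.39 and 5.38 CPM). Examples of the 7, chosen after their values were seen, are Golt1b at 526 and 26.3 CPM, Ldhb at 591 and 47.5 CPM and Etnk1 at 880.1 and 67.8 CPM. The same 3 genes were also higher in Elf5-negative libraries 1 and 2, with the title number of Elf5-positive library 1, than in libraries 3 and 4 (Etnk1 1062 and 879 CPM against 196.8 and 69.3 CPM). Their part in the value of Kcnj8 was not tested. Without Elf5-positive library 1 Kcnj8 was at -5.31 and passed (adjusted p = 0.0233).

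The endothelin receptors, through which endothelin 1 constricts vessels, both had lower estimates. Ednra, the receptor of smooth muscle and pericytes, was at 5.17 and 3.87 CPM against 36.3, 30.3, 49.6 and 28.1 CPM, a 7.99-fold difference (-2.998, SE 0.35, adjusted p = 0.0112). Ednrb, which endothelial cells and melanocytes also make, was at 1.73 and 0.329 CPM against 11.4, 6.90, 6.53 and 2.06 CPM (-2.72, SE 0.89, adjusted p = 0.154). The within-library ratio of the 2 receptors overlapped between the groups (log2 1.21 and 3.16 against 1.31 to 3.38). Of 10 other genes of endothelin production and signalling, 9 were tested and only Ece1, an enzyme that releases active endothelin, fell (-1.58, adjusted p = 0.0496). Edn1, the ligand, had a log2 fold change of -0.70 and overlapping groups.

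The surface proteins were less uniform. Cspg4 (NG2), a proteoglycan of pericytes, was at 12.9 and 2.65 CPM against 85.3, 57.0, 63.4 and 34.5 CPM and did not pass (-2.95, SE 0.68, adjusted p = 0.0536). Mcam (CD146), an adhesion protein of pericytes, endothelial cells and some carcinoma cells, was at 34.1 and 76.9 CPM against 176.5, 132.8, 116.2 and 106.9 CPM (-1.26, SE 0.38, adjusted p = 0.122). Gja4, the gap junction protein connexin 37 of vessels, was at 4.12 and 0.910 CPM against 15.8, 10.9, 6.96 and 4.11 CPM, so that Elf5-positive library 1 and Elf5-negative library 4 met (-1.92, adjusted p = 0.247). Summed, the 11 pericyte genes were at 76.3 and 92.1 CPM in the Elf5-positive libraries, of which Mcam made up 34.1 and 76.9 CPM, and at 909, 634, 674 and 387 CPM in the Elf5-negative ones.

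Among 22 further genes of pericyte recruitment and identity, 21 were tested, 10 fell and none rose, with a median log2 fold change of -2.49. Pdgfrb, the receptor that draws pericytes to vessels, was at 21.7 and 10.2 CPM against 317, 357, 356 and 182.2 CPM (-4.25, adjusted p = 0.0112). Cd248 (endosialin), which fibroblasts also make, and Ndufa4l2, a mitochondrial protein, fell by 5.08 and 4.07 on the log2 scale. Pdgfb, the ligand of Pdgfrb, had a log2 fold change of 0.35 and overlapping groups, and Notch3, the Notch receptor of vascular smooth muscle, one of -0.80 (adjusted p = 0.333).

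Markers of other cell types moved in the same comparison. Of 14 fibroblast markers 13 fell, with a median log2 fold change of -4.80. Their summed level was 1414 and 1163 CPM in the Elf5-positive libraries and 25981, 18404, 53587 and 19868 CPM in the Elf5-negative ones, with none at 0 in any library. Of 12 basal and myoepithelial markers 4 fell and none rose (median -1.88). They were Krt5, Cdh3, Col17a1 and Vim, at log2 fold changes of -4.18, -4.51, -4.18 and -3.07. Another 5, Krt14 (0.52), Krt17 (0.27), Igfbp5 (1.00), Il17b (0.64) and Lgr6 (0.33), had an estimate above 0 and did not pass. The basal sums overlapped, at 3122 and 3722 CPM against 3248 to 4448 CPM, with none at 0. Within these sums Igfbp5 (mean 2113 CPM in the Elf5-positive and 1055 CPM in the Elf5-negative libraries) and Vim (235.4 and 1976 CPM) went opposite ways. Of 12 endothelial markers 3 fell, Eng, Kdr and Tek (-2.78, -1.99 and -3.57, median of the list -1.21), with sums of 55.7 and 27.6 CPM against 81.1 to 181.9 CPM and none at 0. Of 14 skeletal muscle markers none passed (median -3.77), and Myh4 was at 0 in Elf5-positive library 2 and in Elf5-negative libraries 3 and 4. Of 10 leukocyte markers none passed, with sums of 151.3 and 56.6 CPM against 64.6 to 376 CPM and none at 0. Of 8 glial markers 7 were tested and 1 rose, Sox10 (1.73), which mammary epithelial cells can also express. Of the 7 tested, 4 had an estimate below 0, down to -5.43, and the median was -0.48. The glial sums, which Sox10 dominates, were 552.6 and 571.7 CPM against 170.5 to 266.6 CPM, with Foxd3 at 0 in both Elf5-positive libraries. Of 8 adipocyte markers 5 were tested and 1 fell, Pparg (-3.81). Of these 5, 2 had an estimate below 0 and 3 above it, and the median was 0.22. The adipocyte sums were 18.5 and 4.61 CPM against 15.9 to 78.4 CPM, with Lep at 0 in 4 of the 6 libraries. The part of each of these cell types in the values of the 35 genes was not tested.

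**Figure D4:**
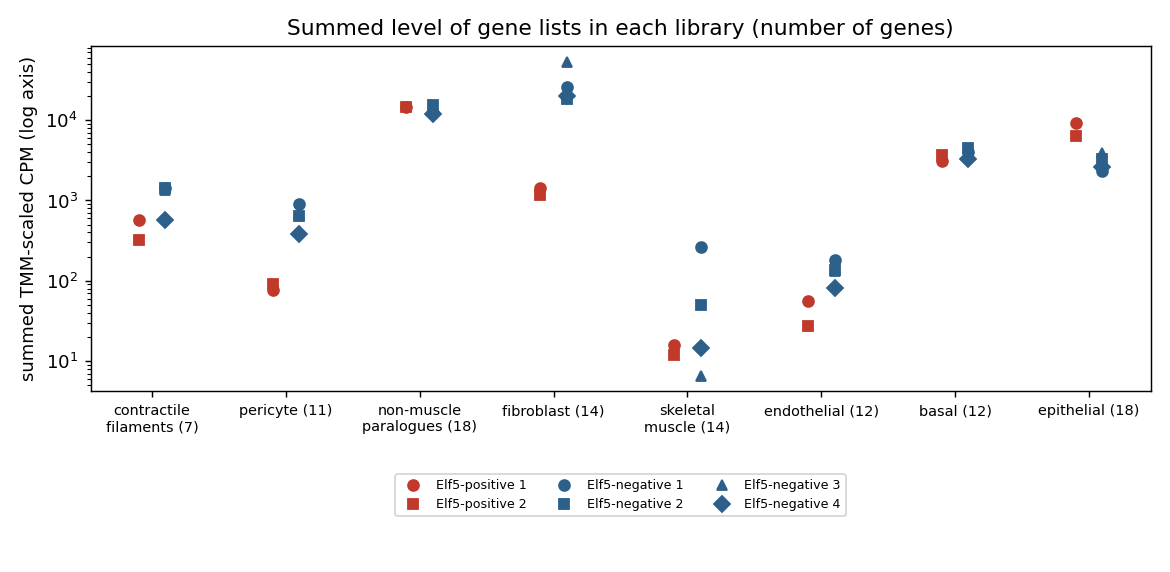
Summed TMM-scaled CPM of gene lists in each library on a log axis, with the number of genes in parentheses; red points are the 2 Elf5-positive libraries and blue points the 4 Elf5-negative ones. Pericyte genes (76.3 and 92.1 against 387 to 909 CPM) and fibroblast markers are separated. Contractile filament genes are at 569 and 323 against 572 to 1425 CPM, so Elf5-positive library 1 nearly reaches Elf5-negative library 4. Non-muscle paralogues and basal markers overlap, and skeletal muscle markers stand out in Elf5-negative libraries 1 and 2.

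Between genes, levels can be set side by side only per kb of exon, and the order differed between the groups. In the Elf5-negative libraries Flna was highest (mean 155.0 CPM per kb), followed by Acta2 (148.8), Tagln (111.5), Tpm2 (72.1), Actn1 (70.8), Cnn2 (69.1), Tpm1 (65.3) and Rgs5 (58.6). This order of means turned with the library, since Acta2 was above Flna in Elf5-negative libraries 1 and 3 (183.3 and 206.4 against 135.6 and 175.8 CPM per kb) and below it in libraries 2 and 4. In the Elf5-positive libraries Flna was again highest (79.5 CPM per kb), followed by Cnn2 (57.2), Actn1 (47.7), Tpm2 (46.5) and Tpm1 (41.0), genes that did not pass. The place of Tpm2 came from Elf5-positive library 1, at 83.8 CPM per kb against 9.21 CPM per kb in library 2. As means of the Elf5-positive libraries, Acta2 was at 8.83 CPM per kb (rank 9), Tagln at 8.43 (rank 10) and Rgs5 at 1.35 (rank 15). Pln was lowest in both groups, at 0.103 CPM per kb in the Elf5-negative and 0.022 CPM per kb in the Elf5-positive libraries.

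The 35 genes also varied within each group. All 15 genes that fell were higher in Elf5-positive library 1 than in library 2, as were 29 of the 35, against 50.7% of all genes tested, and the median ratio of library 1 to library 2 was 2.22 over the 35 genes. The widest were Cnn1 (16.0-fold), Tpm2 (9.10-fold), Sncg (9.07-fold) and Kcnj8 (8.10-fold). The 6 genes that were higher in library 2 were Actg2, Tpm1, Cald1, Lmod1, Pln and Mcam, none of which passed. Among the Elf5-negative libraries, library 4, the shallowest, had the lowest level in 29 of the 35 genes and library 1 the highest in 20. The shares over all genes tested were not computed, so whether these counts are particular to the 35 genes was not tested. When each Elf5-positive library was set against the T2-coded Elf5-negative library with its title number, 31 of the 35 genes were lower in the Elf5-positive library of both pairs, the 15 that fell included, against 35.8% of all genes tested. The 4 others were Lmod1, Synm, Myocd and Pln. For the 26 genes whose groups did not overlap, the 15 included, being lower in both pairs follows from that and is no separate result. The median log2 difference over the 35 genes was -2.54 in the pair of Elf5-positive library 1 and -2.86 in the pair of Elf5-positive library 2.

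**Figure D5:**
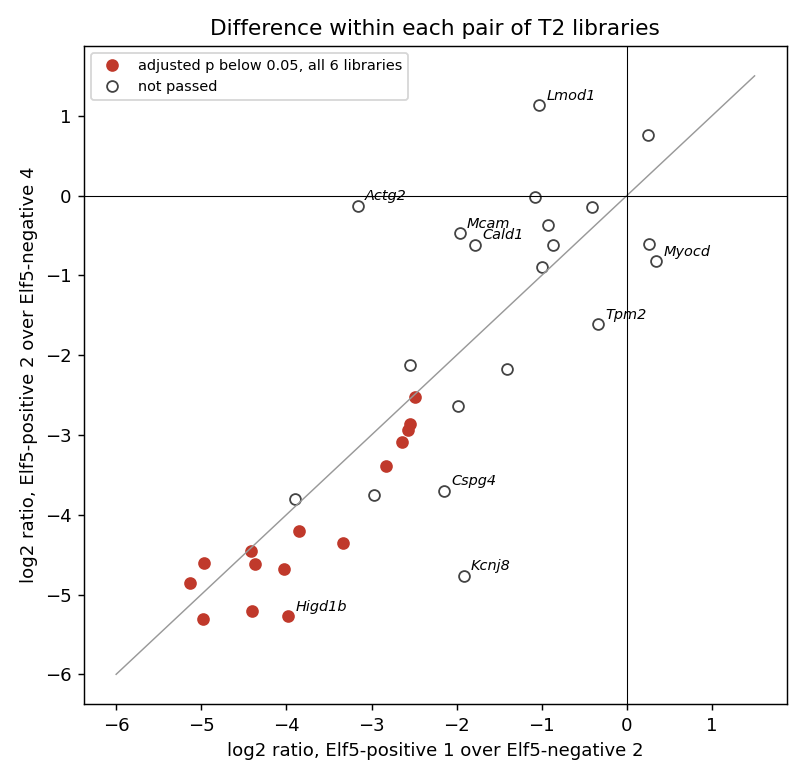
Log2 ratio of Elf5-positive library 1 over Elf5-negative library 2 (horizontal) and of Elf5-positive library 2 over Elf5-negative library 4 (vertical) for the 35 genes, from counts plus 0.5, with the line of equal values; filled points passed in all 6 libraries. Abcc9 and the other filled points lie below 0 on both axes, which follows from the lack of overlap between their groups. Actg2 is at -3.16 and -0.13 and Kcnj8 at -1.92 and -4.76.

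How many of the 35 genes passed depended on single libraries. Without Elf5-negative library 1, Elf5-negative library 3 or Elf5-positive library 2, 6 genes fell in each case, against 1.23%, 1.66% and 0.893% of all genes tested. Synpo2, Aoc3, Rgs5, Abcc9, Vtn and Ednra fell in each of these 3 fits and with any 1 of the 6 libraries left out. Without both Elf5-negative libraries 1 and 2, Aoc3, Rgs5, Abcc9 and Vtn fell. Acta2, Myl9, Tagln and Des passed with 2 of the 6 libraries left out in turn, Nexn with 1, and Myh11, Mylk, Rgs4 and Higd1b with 3. With the libraries scaled to the epithelial markers, which moved the median of all genes from 0.05 to -1.31, 33 of the 35 genes fell, all but Myocd and Pln, where 42.3% of all genes did.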

How the data were processed

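RNA from 6 sorted populations, 2 Elf5-positive and 4 Elf5-negative, was analysed. The deposited table holds estimated counts (expected counts) per Ensembl gene, already whole numbers, so rounding changed none; per the submitters' processing notes the authors ran Salmon on GRCm38.p5, and its version, annotation and strand setting are not given in these sources. Symbols were matched for 52220 of 52325 IDs. Positions and exon lengths came from GENCODE M21 (GRCm38), and promoters from RefSeq (GRCm38.p6).

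Tools were edgeR 4.0.16, DESeq2 1.42.0 and limma 3.58.1 in R 4.3.3, with matplotlib 3.10.9 for figures. The filterByExpr rule dropped low genes, libraries were scaled with TMM factors, and groups compared with edgeR's quasi-likelihood test without a block (adjusted p below 0.05). The SE was taken from the F statistic, as the size of the log2 value over the root of F. The smallest total was 9106660 counts, which limits low genes most.

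The 35 genes, the 5 role groups, 5 pathway lists, 8 marker lists and 13 pairs were chosen with earlier results of these data known. Named are all 35 genes, Elf5, the genes of the pairs and up to 3 list genes of smallest p; others named were chosen after their values were seen. Alternatives were other scalings, filters, tools, a block, and left-out libraries. The values of 1 pair are not reported here.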

Additional observations from a re-analysis of the deposited data

Results flagged for a closer look

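Among 53 levels checked in the 4 Elf5-negative libraries (the 35 genes and the summed lists), 7 had 1 library far from the other 3, measured as the share of the group's range that separates it from its neighbour; chance flags about 1 in 20. Elf5-negative library 4 was far below the others for Actg2 (ratio 0.889), for the summed contractile filament genes (0.913) and for the summed regulators of smooth muscle genes (0.832). Klf4 and Csrp1 were the largest parts of the regulator sum, at 441 and 256 CPM of 1515 CPM in library 4. In libraries 1 to 3 they were at 577 to 652 and 395 to 462 CPM. Library 4 was far above the others for the summed glial markers (0.877), which Sox10 dominates. Elf5-negative library 2 was far above the others for Smtn (0.900) and Actn1 (0.883). Elf5-negative library 1 was far above the others for Vtn (0.854).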

How the results depend on the processing

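The 15 of the 35 genes (members) that fell became 14 with RLE factors, 16 with library totals alone and 17 with limma-voom. In these fits 3.52%, 4% and 4.32% of all genes tested fell. With no low-count filter 22 members fell, and 23 with DESeq2, which was also run without that filter (3.76% and 8.02% of all genes). Scaled to epithelial markers 33 fell (42.3% of all genes). No member rose under any setting. In the T2 libraries alone 0 members, 0 genes of the other lists and 0 genes in all fell or rose in edgeR. Without Elf5-negative libraries 1 and 2, 4 members, 7 genes of the other lists (main value 40) and 75 genes in all fell, and 0 rose. With 1 library left out, 6 to 17 members, 15 to 40 genes of the other lists and 197 to 811 genes in all fell, and 25 to 133 genes rose. Over all genes (783 lower and 121 higher), 8745 fell and 13 rose when scaled to epithelial markers, 1331 and 273 with no filter, and 1735 and 401 with DESeq2; scaled to epithelial markers 122 genes of the other lists fell.

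With the title number as a replicate block, 18 members fell in all libraries, the 15 and Cspg4, Ednrb and Gja4 (adjusted p = 0.0197, 0.0479 and 0.0387, edgeR; 1011 genes lower, 252 higher), and 21 in the T2 libraries (1368 and 549), where only 2 pairs estimate the spread. The number is not defined in the labels. Across 13395 genes, the difference between the Elf5-positive libraries had a correlation of 0.763 with that between Elf5-negative libraries 2 and 4 and of 0.07 with that between libraries 1 and 3; genes are not independent replicates.

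Of 555 member values under other settings, 8 changed sign, all of members that did not pass: Tpm2 (0.2152), Synm (0.1406) and Myocd (0.2937) without Elf5-positive library 2 (lowest with 1 library left out -2.9709, -0.5953 and -1.9082), Smtn (0.0469) and Myocd (0.1122) without Elf5-negative libraries 1 and 2, Lmod1 (0.0112) and Myocd (0.0401) in the T2 libraries, and Lmod1 (0.0027) there with the replicate block. The 7 pairs of genes with no overlap stayed 7 in number with a pseudocount of 3. They became 7 to 12 with 1 library left out and stayed 7 in the T2 libraries. Leaving libraries out cannot create overlap, so these numbers could not fall below 7. The causes of the changes of sign were not tested. Elf5-negative library 4 holds too few counts to show small differences in Pln, Pgm5 or Myocd.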
